A study of Nannochloropsis oceanica strain IMET1 with 6 samples.

Results

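Chromosomes 23, 26 and 30 of the oleaginous marine microalga Nannochloropsis oceanica IMET1 were examined for their cis-interactions, which are pairs of loci on the same chromosome that touched more often than their distance predicts. They were chosen because the account of A and B compartments that accompanied these data names them, and all interactions listed on them were taken. They held 386 of 4456 cis-interactions in nitrogen-replete cells (C0), 69 of 948 after 1 day of nitrogen deprivation (N1) and 326 of 5042 after 2 days (N2). Chromosomes 23 and 26 were 704 and 650 kb long, and chromosome 30, with 502 kb, was the shortest of 30, as measured by the highest position in any list. All cells were of 1 strain, first grown in nitrate medium under continuous light. C0 cells were sampled at the transfer, and N1 and N2 cells were washed and kept in medium without nitrogen. By the authors' methods the light was also weaker after the transfer than before it. No replete culture was sampled at day 1 or 2, so nitrogen, light and time in culture changed together. Each group had 2 Hi-C libraries, 6 in all.

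Hi-C crosslinks chromatin, cuts and religates it, and sequences the junctions, so that loci lying close together in the nucleus give many read pairs, here called contacts. Along a chromosome, contacts fall steeply with distance, and an enrichment over that decay marks a loop, a domain or another fold. A and B compartments are sets of large stretches, rich in active and inactive chromatin, that prefer their own kind. Contacts between the ends of a chromosome are a well-known feature of yeast nuclei, where telomeres cluster at the nuclear envelope. Algae such as this one store oil when nitrogen runs out, and growth slows.

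Each listed interaction is a pair of 1-kb bins, at least 2 kb apart, with a contact count from the pooled replicates of a group. Each group therefore has 1 value, no test between groups was possible, and the 95% intervals given below (exact Poisson for counts, exact binomial for shares) cover counting error only, not the spread between cultures. The ratio of an interaction is its contact count over the count expected for its distance and bins. Of all possible cis bin pairs in the genome, 0.0251% were listed in C0 cells, 0.00534% in N1 cells and 0.0284% in N2 cells. The groups differed in depth: an average bin pair 10 kb apart had an expected count of 8.69 contacts in C0 cells, 2.93 in N1 cells and 4.65 in N2 cells. A shallow list misses weak pairs. At 2 kb the expected counts were 22.6, 10.3 and 14.3, so the groups lay closer together there. Depth below means the expected count at 10 kb, which is not the number of read pairs and also depends on how contacts fall with distance. The groups differed less in the valid read pairs reported by the authors than in this count. Scaling by the 10-kb count lowers C0 further than the valid read pairs or the 2-kb counts would. Scaled to the depth of N1, the 3 chromosomes kept 5 interactions in C0 cells, 69 in N1 cells and 91 in N2 cells. This leaves the N1 list whole, while the C0 and N2 lists, already cut by p-value, can only lose pairs. The order of the groups on this scale therefore does not show which group had more interactions. Scaled to the depth of N2, N2 kept its 326 and C0 kept 91. Plain scaling leaves out the counting noise that lifts some weak pairs into a shallow list. With that noise included, by thinning the contacts of each listed pair, the expected number kept was 27.2 at C0 and 112 at N2 at the depth of N1, and 120 at C0 at the depth of N2. Pairs that only noise would bring into a shallow list are still missing from these numbers. Raw counts are therefore read below mostly within a group, chromosome against chromosome and window against window.

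In nitrogen-replete cells all 3 chromosomes were densely covered with interactions. On chromosome 30 the C0 list held 245 cis-interactions per Mb (95% interval 204 to 292), the highest of the 30 chromosomes. Chromosome 23 had 207 per Mb (175 to 244), the third highest, and chromosome 26 had 180 per Mb (149 to 216). Each was set beside the 5 chromosomes nearest to it in length, together chromosomes 22, 24, 25, 27, 28 and 29, and each lay above all 5 of them. The 5 like-size chromosomes had 97.1 to 151 per Mb for chromosomes 23 and 26, and 97.1 to 179 per Mb for chromosome 30. Relative to the median of the like-size chromosomes, the density was 1.74 for chromosome 23 (1.47 to 2.04), 1.51 for chromosome 26 (1.25 to 1.81) and 1.73 for chromosome 30 (1.44 to 2.06). These intervals leave out the spread among the like-size chromosomes.

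After 2 days without nitrogen this excess was smaller on chromosomes 23 and 30. On chromosome 23 the relative density was 1.74 in C0 cells, 1.47 in N1 cells (0.974 to 2.12) and 1.08 in N2 cells (0.899 to 1.30). On chromosome 30 it was 1.73 in C0 cells, 1.06 in N1 cells (0.530 to 1.90) and 0.966 in N2 cells (0.770 to 1.20), where 2 of the 5 like-size chromosomes were lower. On chromosome 26 it was 1.51 in C0 cells, 1.70 in N1 cells (1.15 to 2.43) and 1.19 in N2 cells (0.991 to 1.43). The N1 value of chromosome 26 rests on its shortest pairs, and with pairs at least 4 kb apart it turned to 0.675. The intervals of N2 and C0 did not overlap on chromosomes 23 and 30 and did on chromosome 26. Without end pairs they overlapped on chromosome 23, at 1.39 (1.14 to 1.68) in C0 and 1.04 (0.858 to 1.25) in N2 cells. On chromosome 30 they stayed apart, at 1.67 (1.36 to 2.04) and 0.954 (0.760 to 1.18). The like-size median was 119 per Mb at C0 and 157 at N2 for chromosomes 23 and 26, and 142 and 173 for chromosome 30. Chromosome 26 itself had 180 per Mb at C0 and 188 at N2. The interactions behind these values numbered 146 in C0 cells, 28 in N1 cells and 120 in N2 cells on chromosome 23, 117, 30 and 122 on chromosome 26, and 123, 11 and 84 on chromosome 30. With the C0 contacts thinned to the depth of N2, the ratio at C0 was 1.73 on chromosome 23, 1.65 on chromosome 26 and 1.94 on chromosome 30. Scaled to the depth of N1, C0 kept at most 2 interactions on each chromosome, too few to read this ratio.

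**Figure D1:**
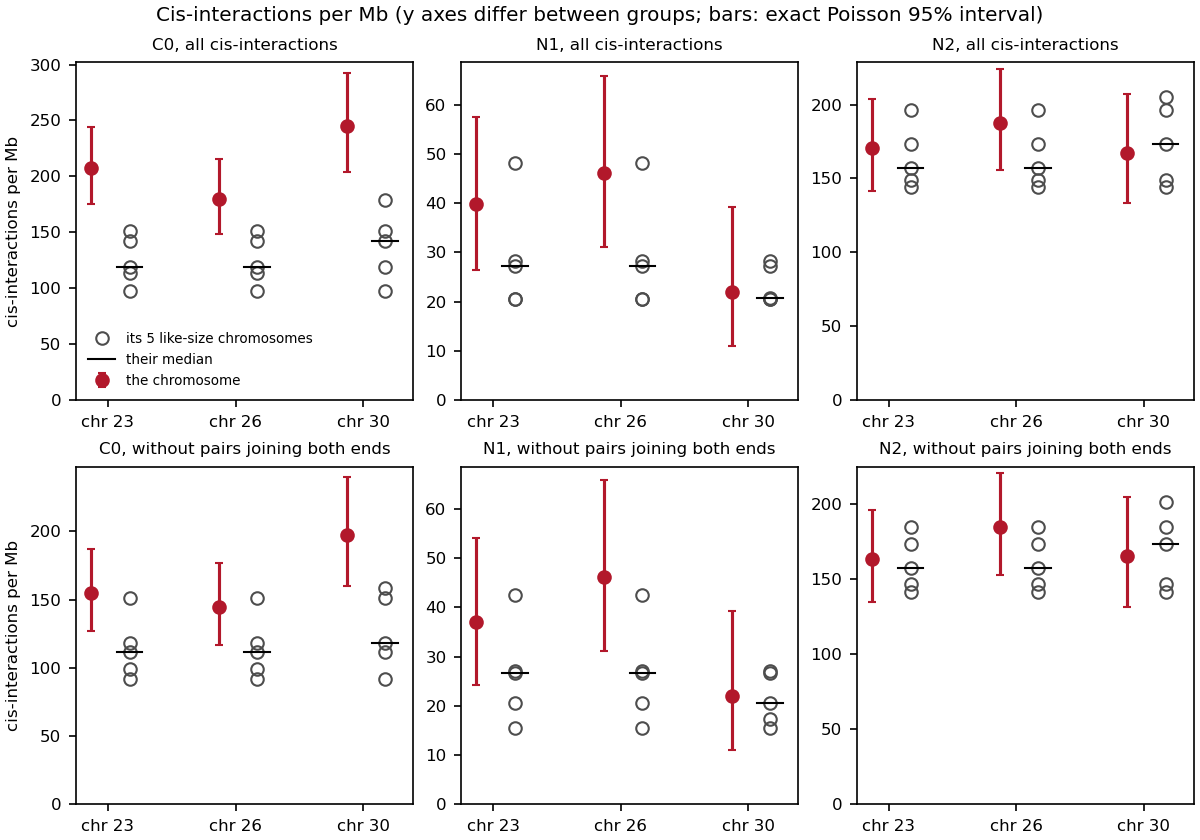
Cis-interactions per Mb (y axis, starting at 0 and scaled for each group) of chromosomes 23, 26 and 30 (filled points, exact Poisson 95% interval) and of their 5 like-size chromosomes (open points, median as a line), for C0, N1 and N2. The upper row holds all cis-interactions, and in the lower row, without pairs that join both ends, chromosomes 23 and 30 still lie above all 5 at C0 and chromosome 26 above 4.

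A large share of the C0 interactions joined the 2 ends of a chromosome. Counting pairs with 1 bin in the first 20 kb and the other in the last 20 kb, chromosome 23 had 37 in C0 cells, 2 in N1 cells and 5 in N2 cells. Chromosome 26 had 23 in C0 cells, 0 in N1 cells and 2 in N2 cells, and chromosome 30 had 24, 0 and 1. At C0 only chromosome 20 had more than chromosome 23, and all 3 had more than any of the like-size chromosomes, which had 0 to 14. Such pairs made up 25.3% of the C0 list of chromosome 23 (18.5 to 33.2), 19.7% on chromosome 26 (12.9 to 28.0) and 19.5% on chromosome 30 (12.9 to 27.6). Together the 3 chromosomes carried 84 of the 334 pairs of this kind in C0 cells, 2 of 18 in N1 cells and 8 of 54 in N2 cells.

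The listed end pairs had few contacts and high ratios. Their median expected count at C0 was 0.161, 0.210 and 0.161 on chromosomes 23, 26 and 30. No C0 pair with fewer than 5 contacts was listed, so only pairs with high ratios could appear. At C0 their median was 8 contacts on chromosome 23 (range 5 to 14), 8 on chromosome 26 (5 to 18) and 7 on chromosome 30 (5 to 12). The median ratio to the expected count was 50.5, 34.6 and 50.9 on these chromosomes, and 33.5 to 56.1 on the like-size chromosomes that had end pairs. Low expected counts over such spans favour end pairs when pairs are ranked by ratio. The pair farther than 10 kb apart with the highest ratio was in each case an end pair: 2001 to 3000 with 697001 to 698000 on chromosome 23 (11 contacts, ratio 104, 51.8 to 186), 5001 to 6000 with 649001 to 650000 on chromosome 26 (10 contacts, ratio 96.3, 46.2 to 177), and 1001 to 2000 with 499001 to 500000 on chromosome 30 (12 contacts, ratio 99.96, 51.7 to 175). None of these 3 pairs was listed at N1 or N2. The pairs spread over 13 left and 13 right bins on chromosome 23, 8 and 11 on chromosome 26, and 9 and 7 on chromosome 30, and pairs in neighbouring bins are not independent: merged, they formed 18, 12 and 9 separate contacts.

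End pairs took a different course from pairs between 5 and 100 kb. As listed, the 3 chromosomes had 84 end pairs at C0 and 8 at N2, but 83 pairs between 5 and 100 kb at C0 and 139 at N2. Scaling removes pairs from the C0 list only, so a larger number at N2 on that scale is not read as a gain. With C0 scaled to the depth of N2, N2 held 8 end pairs on the 3 chromosomes against 22 at C0, while N2 held 139 pairs between 5 and 100 kb against 15 at C0. The order was the same on each chromosome, with 5 end pairs at N2 against 11 at C0 on chromosome 23, 2 against 5 on chromosome 26 and 1 against 6 on chromosome 30. Over the genome, N2 held 54 end pairs against 88 at C0 on this scale. With the C0 contacts thinned in place of scaled, the expected numbers at C0 were 29.99 end pairs and 19.6 pairs between 5 and 100 kb on the 3 chromosomes. At the depth of N1, none of the 84 end pairs of C0 was kept by scaling and 7.95 were expected by thinning, where N1 listed 2. Whether the bias factors of end bins, or reads that map to similar ends, take part in these pairs was not tested. The factors of the end bins at C0 ran between 0.542 and 1.97 on chromosome 23, 0.561 and 1.96 on chromosome 26, and 0.565 and 1.85 on chromosome 30.

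**Figure D2:**
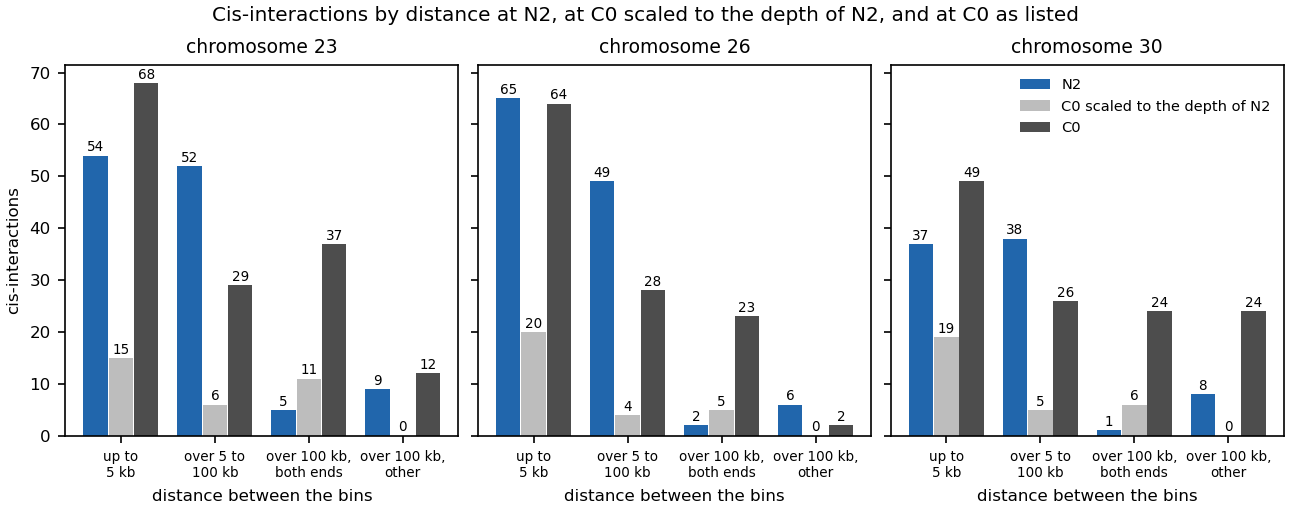
Number of cis-interactions (y axis) by distance between the bins (x axis) on chromosomes 23, 26 and 30, for N2, for C0 scaled to the depth of N2, and for C0 as listed. With C0 scaled to the depth of N2, the pairs joining both ends are fewer at N2 than at C0 on each chromosome. Scaling removes pairs from the C0 list only, so the larger N2 numbers in the other 3 distance classes are not read as a gain.

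Chromosome 30 also had long contacts reaching inward from its ends. Besides its 24 end pairs it had 24 pairs farther than 100 kb apart at C0, the most of any chromosome, where chromosome 23 had 12, chromosome 26 had 2, and the like-size chromosomes had 0 to 7. Of these 24 pairs, 11 joined the second 50-kb window (50001 to 100000) to the last 2 windows (450001 to 502000), with 6 to 8 contacts each and distances of 381 to 446 kb. A single bin, 495001 to 496000, had 9 partners at C0, all within the first 37 kb, and no partner at N1 or N2. None of the pairs between window 2 and the last 2 windows was listed at N1 or N2, and of the 24, none was kept by scaling to the depth of N2 and 3.98 were expected by thinning. The long pairs of chromosome 30 at N2, 9 in number, lay mostly between inner windows: 3 joined window 4 (150001 to 200000) to window 8 (350001 to 400000) with a median ratio of 47.2, and only 1 was an end pair.

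**Figure D3:**
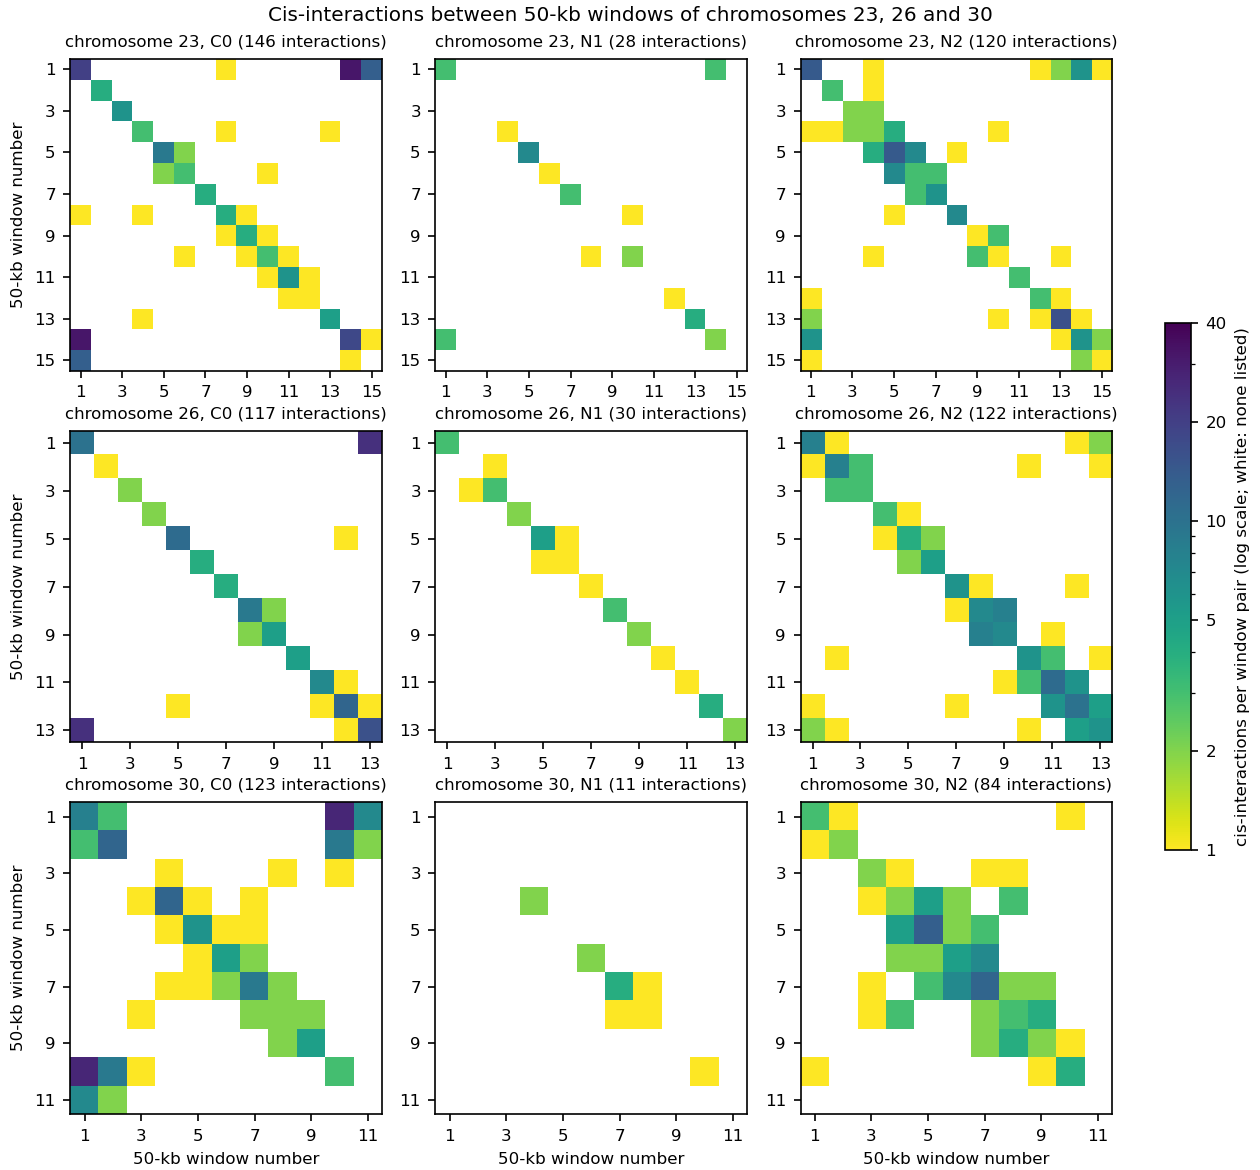
Number of cis-interactions between each pair of 50-kb windows (colour, log scale, white where none is listed) of chromosomes 23, 26 and 30 at C0, N1 and N2, with windows numbered from the left end on both axes. At C0 the corner that joins the first and last windows is filled on all 3 chromosomes, and at N2 it holds fewer interactions while the squares next to the diagonal hold more.

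Counted in 50-kb windows, the C0 interactions were piled at the ends. On chromosome 23, the window with the most was window 1 (1 to 50000), with 66 of 146, followed by window 14 (650001 to 700000) with 51, while the 12 full windows between them had 2 to 11 each (median 6). On chromosome 26 the most were in window 13 (600001 to 650000), with 41 of 117, and in window 1, with 34, and the fewest in window 2 (50001 to 100000), with 1. On chromosome 30 the most were in window 1, with 45 of 123, and in window 10 (450001 to 500000), with 40. The share of C0 interactions with a bin in the outer 50 kb at either side was 58.2% on chromosome 23 (49.8 to 66.3), 43.6% on chromosome 26 (34.4 to 53.1) and 48.8% on chromosome 30 (39.7 to 58.0). All 5 like-size chromosomes were lower in each case, at 13.2% to 42.2%. The corresponding shares were 28.6%, 16.7% and 9.09% in N1 cells, and 29.2%, 20.5% and 11.9% in N2 cells. The like-size chromosomes of chromosomes 23 and 26 had 20.6% to 41.7% at N1 and 9.01% to 22.8% at N2, and those of chromosome 30 had 21.4% to 41.7% and 11.3% to 22.8%. Chromosome 23 thus still lay above all 5 at N2, where chromosomes 26 and 30 lay within their range. The median of the like-size chromosomes of chromosomes 23 and 26 was also lower at N2, 11.5% against 22.5% at C0, so a lower outer share at N2 was not particular to the 3 chromosomes.

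At N2 inner windows held a larger share of the list than at C0, and different ones on each chromosome. On chromosome 23, window 5 (200001 to 250000) had 26 interactions at N2 against 11 at C0, which is 21.7% of the list (14.7 to 30.1) against 7.53% (3.82 to 13.1). Window 13 (600001 to 650000) had 21 at N2 against 6 at C0, and the end windows 1 and 14 had 25 and 15 at N2 against 66 and 51 at C0. On chromosome 26, window 2 had 14 at N2 against 1 at C0, and windows 1 and 13 had 12 and 15 at N2 against 34 and 41 at C0. On chromosome 30, windows 5 (200001 to 250000) and 7 (300001 to 350000) had 23 and 27 at N2 against 9 and 15 at C0, and windows 1, 2 and 10 had 5, 3 and 6 at N2 against 45, 26 and 40 at C0. These windows were named because the intervals of their 2 shares did not overlap. In every other window of the 3 chromosomes the intervals of N2 and C0 overlapped. The intervals treat interactions as independent, which interactions that share a bin are not. On chromosome 23 the bin 238001 to 239000 alone took part in 15 of the 26 interactions of window 5 at N2. Shares of 1 list add up to a whole, so a lower share at the ends comes with a higher share elsewhere.

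**Figure D4:**
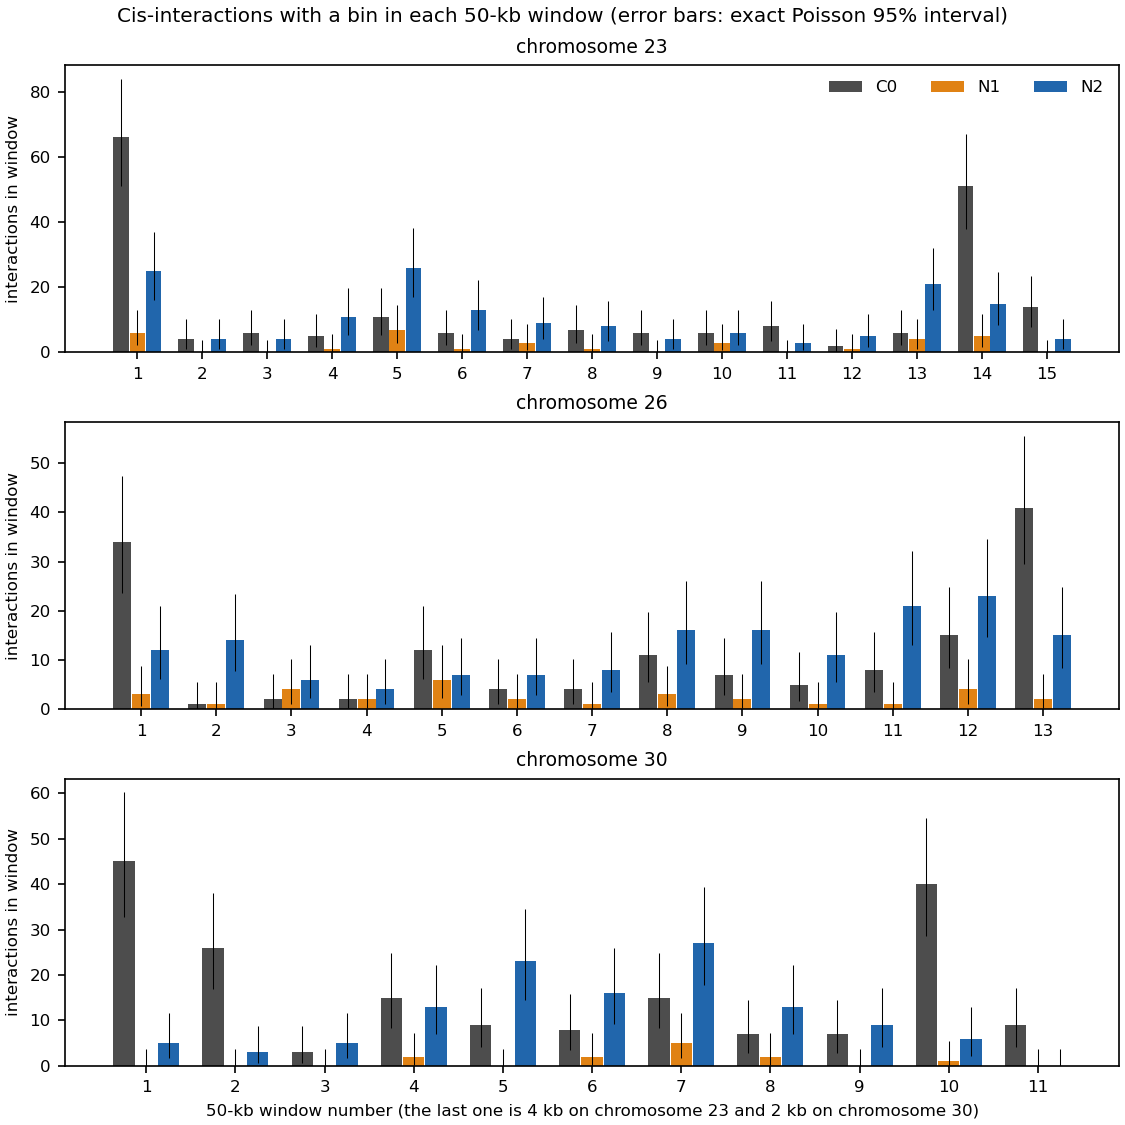
Number of cis-interactions with at least 1 bin in each 50-kb window (y axis, exact Poisson 95% interval) along chromosomes 23, 26 and 30 (x axis, window number from the left end) at C0, N1 and N2. At C0 the highest are windows 1 and 14 on chromosome 23, 1 and 13 on chromosome 26, and 1 and 10 on chromosome 30, and at N2 they are window 5 on chromosome 23, window 12 on chromosome 26 and window 7 on chromosome 30.

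N1 filled few windows. Of its 28 interactions on chromosome 23, 7 lay in window 5, 6 in window 1 and 5 in window 14, and 5 of the 15 windows had none. On chromosome 26 its 30 interactions touched every window, with 1 to 6 in each and the most in window 5 (200001 to 250000). On chromosome 30 its 11 interactions touched 5 of 11 windows, led by window 7 with 5, and the first 3 windows, with 45, 26 and 3 at C0, had none. The only window share with an interval apart between N1 and C0 was that of window 13 on chromosome 26, with 2 interactions at N1 against 41 at C0. With so few interactions, a change of a window at N1 was mostly not detectable at this depth.

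The order of the windows by count was described with Spearman's rho, over 15 windows on chromosome 23, 13 on chromosome 26 and 11 on chromosome 30, with no test, since the windows of 1 list share its depth and neighbouring windows share interactions. On chromosome 23 rho was 0.92 between N2 and N1, 0.29 between N2 and C0, and 0.31 between N1 and C0. On chromosome 30 it was 0.67 between N2 and N1, -0.16 between N2 and C0, and 0.03 between N1 and C0. Chromosome 26 was ordered otherwise, with -0.11 between N2 and N1, 0.53 between N2 and C0, and 0.41 between N1 and C0. The value of 0.92 fell to 0.63 with 25-kb windows and 0.62 with windows moved by 25 kb.

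Pairs spanning 2 neighbouring windows made up a larger share of each list at N2. On chromosome 23 they were 19.2% of interactions at N2 and 4.79% at C0. On chromosome 26 they were 24.6% at N2 and 3.42% at C0, and on chromosome 30 they were 27.4% at N2 and 9.76% at C0. N1 had 0, 2 and 1 such pairs on the 3 chromosomes. The like-size chromosomes had 15.2% to 26.1% at N2 and 10.5% to 18.4% at C0, so that the shares of chromosomes 23, 26 and 30 lay below all of them at C0. These are shares of the whole list, in which end pairs weigh heavily at C0. Per Mb, pairs over 10 and up to 50 kb at C0 were 19.9 on chromosome 23 and 13.8 on chromosome 26, against a like-size median of 17.1. Chromosome 30 had 21.9 against 18.8. By distance, the pairs over 10 and up to 50 kb numbered 14 in C0 cells, 1 in N1 cells and 28 in N2 cells on chromosome 23, 9, 0 and 30 on chromosome 26, and 11, 0 and 18 on chromosome 30.

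Most of the remaining interactions were short. Pairs up to 5 kb apart numbered 68 in C0 cells, 20 in N1 cells and 54 in N2 cells on chromosome 23, 64, 28 and 65 on chromosome 26, and 49, 9 and 37 on chromosome 30. Per Mb, chromosome 26 had more such short pairs at N1 than any other chromosome, 43.1 against 13.7 to 39.7 on its like-size chromosomes, and N1 had nothing beyond 10 kb on chromosomes 26 and 30. The median ratio to the expected count over all pairs was 3.62 in C0 cells, 4.90 in N1 cells and 4.23 in N2 cells on chromosome 23, and 3.26, 4.42 and 4.27 on chromosome 26. On chromosome 30 it was 4.56, 4.74 and 5.41, the highest of the 30 chromosomes at C0 and at N2. A pair with a lower expected count needs a higher ratio to be listed, so depth and distance shape these medians. Over all 30 chromosomes they were 3.05, 4.36 and 3.93, and 39.0% of the C0 list of chromosome 30 lay over 100 kb. Neither the order of the groups nor the rank of chromosome 30 is therefore read as stronger enrichment.

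The bin pair with the highest contact count was a short one on each chromosome and in each group. On chromosome 23 it was 6001 to 7000 with 9001 to 10000 at C0, with 126 contacts and a ratio of 2.89 (2.41 to 3.44), listed at C0 only. At N2 it was 241001 to 242000 with 243001 to 244000, which had 72 contacts in C0 cells, 36 in N1 cells and 143 in N2 cells, and ratios of 2.10 (1.64 to 2.64), 3.22 (2.25 to 4.45) and 4.76 (4.01 to 5.61). On chromosome 26 the leading pair at N2 was 89001 to 90000 with 94001 to 95000, with 129 contacts and a ratio of 9.12 (7.61 to 10.8) at N2, against 78 contacts and 3.64 (2.87 to 4.54) at C0. It lies in window 2, where C0 listed no other interaction. On chromosome 30 the leading pair at N2 was 351001 to 352000 with 353001 to 354000, with 96 contacts in C0 cells, 35 in N1 cells and 116 in N2 cells, and ratios of 2.48 (2.01 to 3.03), 3.48 (2.43 to 4.85) and 4.94 (4.08 to 5.92). These pairs were picked by their count at N2, so their ratios at the other times are given as a description.

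The bin with the most partners at N2 had them to both sides on each chromosome. It was picked by its count at N2, and other bins led at C0, with 13 partners on chromosome 23 (6001 to 7000 and 697001 to 698000), 10 on chromosome 26 (5001 to 6000) and 9 on chromosome 30. On chromosome 23 the N2 leader was 238001 to 239000, in window 5, with 5 partners in C0 cells, 5 in N1 cells and 15 in N2 cells. None of its partners at C0 and N1 lay beyond 10 kb, while 11 at N2 did, up to 156 kb away, with 8 to 26 contacts each. On chromosome 26 the bin 572001 to 573000 had 9, 1 and 14 partners, and its farthest at N2 was 18001 to 19000, 554 kb away, with 9 contacts and a ratio of 45.6 (20.9 to 86.6). At C0 it had 3 partners beyond 10 kb, the farthest 342 kb away with a ratio of 17.7 (7.66 to 34.9), against 9 at N2. On chromosome 30 the bin 303001 to 304000 had 4, 1 and 14 partners, of which 10 at N2 and 1 at C0 lay beyond 10 kb, at N2 to 103 kb on the left and 108 kb on the right. Such bins were not peculiar to these chromosomes: the leading bins of the like-size chromosomes had 11 to 25 partners at N2. Scaled to the depth of N1, the 3 bins kept 4, 6 and 4 partners at N2 and none at C0.

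**Figure D5:**
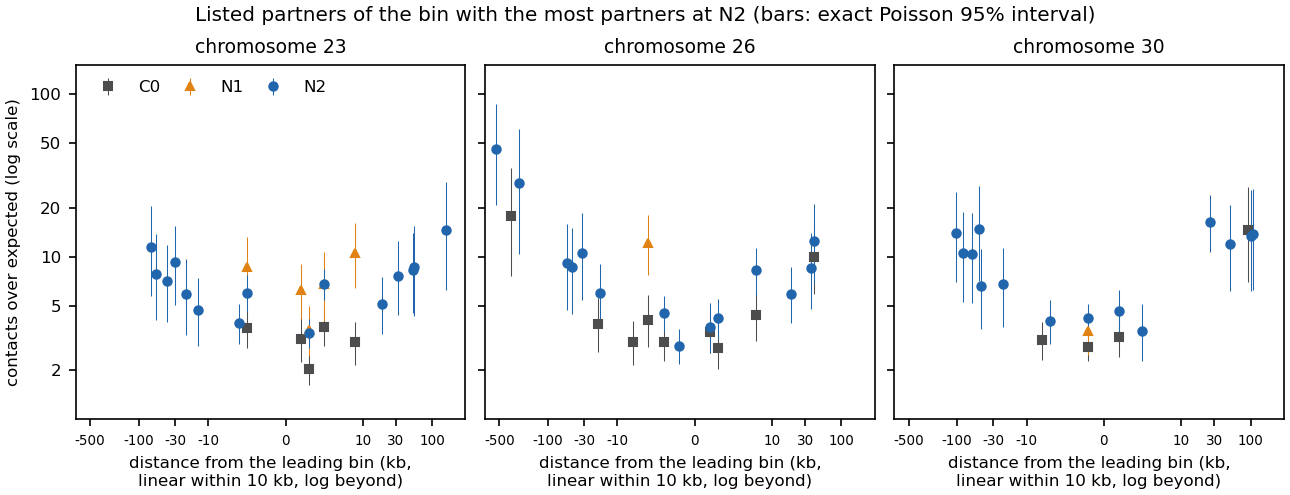
Ratio of contacts to expected contacts (y axis, log scale, exact Poisson 95% interval) of every listed partner of the bin with the most partners at N2 on chromosomes 23, 26 and 30, against the distance of the partner from that bin (x axis, negative to the left). At N2 (circles) partners lie beyond 10 kb on both sides of each bin, while at C0 (squares) and N1 (triangles) most lie within 10 kb.

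Under exact matching of 1-kb bins, most C0 pairs were not listed in another group. Matched within 5 bins, 64.5% of the C0 pairs on the 3 chromosomes had a pair at N2 and 25.6% had one at N1, so the shares that follow hold for exact matches. Of the 386 C0 interactions on the 3 chromosomes, 98 were also listed at N2, or 25.4% (21.1 to 30.04), where 35.6% of all C0 cis-interactions were. On chromosomes 23, 26 and 30 these were 37 of 146, 33 of 117 and 28 of 123. Also listed at N1 were 36 of the 386, or 9.33% (6.62 to 12.7), where the genome had 8.37%. From the other side, 98 of the 326 N2 interactions were also listed at C0, 30.1% (25.1 to 35.4) against 31.5% in the genome, and 31 were also listed at N1, 9.51% (6.55 to 13.2) against 8.96%. Of the 69 N1 interactions, 36 were also listed at C0, 52.2% (39.8 to 64.4) against 39.3% in the genome, and 31 at N2, 44.9% (32.9 to 57.4) against 47.7%. Of the 6 intervals, those of C0 pairs at N2 and of N1 pairs at C0 left out the genome value, the first below it and the second above it. Of the 84 end pairs of C0, 4 were found again at N2, and the share over the end pairs of all chromosomes was not computed.

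In all 3 groups 21 bin pairs of these chromosomes were listed, 12 on chromosome 23, 3 on chromosome 26 and 6 on chromosome 30. The share over all chromosomes was not computed, so these counts are not read as many or few. Of the 21 pairs, 12 were at the shortest distance of 2 kb. On chromosome 23, 5 of the 12 lay between 233001 and 248000, around the bin with the most partners. On chromosome 30, 3 of the 6 joined the bin 329001 to 330000 to bins 2, 4 and 6 kb to its right. Only 1 of the 21 was farther than 10 kb apart: 19001 to 20000 with 45001 to 46000 on chromosome 23, with 35 contacts in C0 cells, 15 in N1 cells and 29 in N2 cells. Its ratio was 5.08 in C0 cells (3.54 to 7.06), 13.1 in N1 cells (7.36 to 21.7) and 8.34 in N2 cells (5.59 to 11.98).

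The same chromosome ends also met ends of other chromosomes in nitrogen-replete cells. Of the trans-interactions of chromosome 23 at C0, 12 of 16 had their chromosome 23 bin in an outer 20 kb, and this held for 21 of 28 on chromosome 26 and 14 of 20 on chromosome 30. It was as common on some like-size chromosomes, with 21 of 28 on chromosome 22, 26 of 33 on chromosome 28 and 17 of 21 on chromosome 29, and less so on others, with 7 of 16 on chromosome 24, 2 of 6 on chromosome 25 and 6 of 11 on chromosome 27. On chromosomes 23, 26 and 30 the numbers were 0 of 5, 1 of 4 and 1 of 7 at N1, and 8 of 28, 11 of 106 and 2 of 22 at N2. On chromosomes 22, 24 and 25 they were 22 of 105, 5 of 60 and 0 of 40 at N2. On chromosomes 27, 28 and 29 they were 7 of 43, 26 of 44 and 6 of 28. A lower share at N2 was thus not particular to the 3 chromosomes. Many N2 pairs of chromosomes 23, 26 and 30 rest on bins without a usable bias factor, 20, 93 and 13 of them, against 4, 7 and 2 at C0. With usable bins only, the counts were 4 of 8, 4 of 13 and 2 of 9 at N2, against 10 of 12, 19 of 21 and 14 of 18 at C0.

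No compartment scores were used here, so no window is assigned to compartment A or B, and a list of enriched pairs does not give the plaid pattern from which compartments are read. For the comparison of N1 with C0, in which these chromosomes are named for compartments, the lists hold 69 interactions at N1 against 386 at C0, and at the depth of N1 they hold 69 against 5 by scaling and an expected 27.2 by thinning. These numbers do not show which group had more interactions. Genes are not named, since the nuclear genes of this strain were not annotated in the tables at hand.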

How the data were processed

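The authors trimmed reads with Trimmomatic, used the ICE package for mapping on the V2 genome, pooled the replicates and called interactions with Fit-Hi-C. The methods also name HiC-Pro, for processing the cleaned reads with a minimum cis distance above the shortest listed here, and edgeR, for differential interactions. The deposited lists hold for each bin pair a contact count, not scaled for depth, the authors' p-value and q-value, and for each bin a deposited score, its bias factor, where 1 is an average bin and -1 an unusable one. The bins in the files are 1 kb wide. The methods state wider bins than the files show. The optical density at the transfer differs between the methods and the labels. The lists of shared bin pairs, made by the authors for their own comparisons, were not used.

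The expected count was computed as the Poisson mean at which a count this high or higher has the deposited p-value. Windows were 50 kb, ends 20 kb, and like-size chromosomes the 5 nearest in length. A pair spanning windows counts in each. In the depth scaling, contact and expected counts were multiplied by the ratio of expected counts at 10 kb, contacts were rounded, and pairs below 3 contacts or above the largest p-value of the shallower group were dropped. In the thinning, the chance that a listed pair stays above the same limits after binomial sampling of its contacts was summed over pairs. Named items are, on each chromosome and in each group, the pair with the highest contact count, the pair over 10 kb apart with the highest ratio, pairs over 10 kb apart listed in all 3 groups, the windows with the most and fewest interactions, the leading window pair over 100 kb apart and the bin with the most partners. Other named pairs were chosen after their values were seen. The members and lists were chosen with earlier results of these data known. Chromosome lengths are the highest listed positions, and the build is the authors'. The scripts (python 3.11.15, numpy 2.4.6, scipy 1.17.1, pandas 2.3.3, matplotlib 3.10.9) were tested on simulated data.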

Additional observations from a re-analysis of the deposited data

How the results depend on the processing

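No paired analysis was possible because each list pools both replicates, and for the same reason no replicate could be left out. Over all settings, 113 of 158 values of the main comparisons stayed within the limits set for them. These limits were a fixed fold change for counts, and the counting interval of the main value for ratios and shares. Some values could not move: N1 scaled to its own depth is unchanged, and no C0 pair had fewer than 5 contacts. The tally is therefore not a measure of robustness. Depth was the choice that moved most. Scaled to the depth of N1, the 3 chromosomes kept 91 interactions at N2 and 5 at C0, and C0 kept 91 at the depth of N2. On that N1 scale the density relative to the like-size chromosomes was 0.831 at N2 and 0.554 at C0 on chromosome 23, 0.600 at C0 on chromosome 26, and 0.678 at N2 and 0.386 at C0 on chromosome 30, below 1 in each case, while chromosome 26 had 1.29 at N2, with at most 2 interactions per chromosome left at C0. In settings added after seeing the data, C0 scaled to the depth of N2 gave 1.95 on chromosome 26, and thinning to the depth of N1 gave 0.755 at N2 on chromosome 30. Thinning left an expected 112 interactions at N2 and 27.2 at C0 on the 3 chromosomes at the depth of N1, and 120 at C0 at the depth of N2. The end pairs among them numbered 1.52 at N2 and 7.95 at C0, and 29.99 at C0 at the depth of N2. End pairs of the 3 chromosomes numbered 0 at both C0 and N2 at the depth of N1, and 22 at C0 at the depth of N2. With pairs at least 4 kb apart, the 3 chromosomes had 247 interactions in C0 cells, 17 in N1 cells and 202 in N2 cells. The relative density was then 2.05 at C0 and 2.29 at N1 on chromosome 23, and turned to 0.675 at N1 on chromosome 26. The relative density of chromosome 23 at C0 was 1.45 with neighbouring pairs merged, 1.41 against the 8 nearest chromosomes, 1.39 for contacts in place of interactions, and, in settings chosen after seeing the data, 1.39 without end pairs and 1.37 up to 100 kb. That of chromosome 26 at C0 was 1.23 against the 8 nearest. That of chromosome 30 was 1.30 at C0 up to 100 kb and 0.732 at N2 for contacts. End pairs numbered 39 at C0 when merged. With ends of 10 kb they numbered 48 in C0 cells, 0 in N1 cells and 3 in N2 cells, with a q-value below 0.001 they numbered 0 at N1 and 5 at N2, and with at least 5 contacts 0 at N1. Of the C0 pairs, 25.6% matched N1 within 5 bins, and 3.64% of those at least 4 kb apart matched exactly. At N2, 32.6% matched within 1 bin, 64.5% within 5 bins, and 17.8% of those at least 4 kb apart exactly. Rank correlations of windows changed sign with the window size on chromosomes 26 and 30. At 100 kb, that of N1 and C0 on chromosome 26 was -0.38, and at 25 kb that of N2 and N1 was 0.16. By contacts, the leading window at N2 was window 13 on chromosome 23 and window 8 on chromosome 26, and at C0 window 2 on chromosome 30. The cause of these shifts was not tested.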
